A study of Homo sapiens with 16 samples.

Results

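Immune checkpoint ligands and receptors were followed across the cells of 2 mouse mammary tumor models. The members are 10 of the 32285 genes in the deposited tables, 5 ligands (Cd274, Pdcd1lg2, Cd80, Cd86 and Vsir) and 5 receptors (Pdcd1, Ctla4, Lag3, Havcr2 and Tigit), chosen by name for their known role. Each member was read as unique molecular identifiers (UMIs), which count captured mRNA molecules, summed over the cells of a deposited cluster label and given as counts in 1000000 UMIs of that label (CPM). Ligands were read mainly on malignant and myeloid labels and receptors on T and NK labels.

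The tumor lines LPA1-T22 (T22) and LPA1-T127 (T127) come from mice with a mammary transgene for LPA1, a receptor of lysophosphatidic acid. PARP inhibitors act on T22 grown alone, while T127 withstands them. The authors found T22 to be resistant to olaparib when T127 grew in the same mouse. Pieces of them were transplanted into the mammary fat pads of female FVB mice, 6 weeks of age, which were treated daily with vehicle or with 50 mg/kg of the PARP inhibitor olaparib. In the long-term experiment (20 days, 8 pools) T22 and T127 grew alone or on opposite sides of 1 mouse, and each pool mixed hashtagged tumors of both models. In the short-term experiment (4 or 8 days) T22 tumors filled 4 pools and T127 tumors another 4.

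No file used here assigns a cell to its tumor, so each of these 3 groups counts as 1 sample without replicates. Vehicle was not compared with olaparib, nor day 4 with day 8, nor single with co-transplanted tumors, and no p-value was computed. Intervals are exact at 95% and cover counting error only, and the values of the single pools show the spread between libraries, which mix the same kinds of tumors. T22 and T127 short-term pools are separate libraries of different depth, so model and library cannot be told apart there. In the long-term pools malignant cells of both models were captured together.

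Depth differed between groups. Medians per pool were 7730 to 8528 UMIs per cell in T22, 22712 to 26017 in T127 and 9548.5 to 11720.5 in the long-term pools once each shared barcode was kept only at its deepest copy. Long-term pools 1, 2 and 3 shared 987 to 3939 barcodes by pair, against 1 to 8 in the other 25 pairs. The shallower copies, 5122 of 30845 cells, were left out here. Long-term levels and ratios of the members were also computed without these 3 pools, and 7 of 106 levels moved by more than 1.5-fold.

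Ligands and receptors of this family set the threshold of T cell activation. Cd274 and Pdcd1lg2 encode PD-L1 and PD-L2, which bind the inhibitory receptor PD-1, the product of Pdcd1. CD80 and CD86 on antigen-presenting cells bind the activating receptor CD28 and the inhibitory receptor CTLA-4, and VISTA (Vsir), LAG-3, TIM-3 (Havcr2) and TIGIT are further inhibitory proteins of myeloid, T and NK cells. Cd274 is known as a gene that interferon gamma induces.

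The labels were checked against marker genes before they were used. Macrophage labels (Macro-M1, Macro-M2, Macro-MKI67, Macro-others) and CD16-CDKN1C carried the 3 macrophage markers Adgre1, Csf1r and C1qa. CD14-IL1B has a monocyte name but carried a conventional dendritic cell list (Xcr1, Clec9a, Flt3, Zbtb46) at a summed 928 CPM in T22 and 515 CPM in T127. CD14-PF4 carried a mature dendritic cell list (Ccr7, Fscn1, Ccl22) at 1152 CPM in T22 and 639.9 CPM in T127. A UMI of both Ccr7 and Fscn1 was present in 7 of its 66 cells in either group, and in 16 of 98 long-term cells. CD4_Tcm-TCF7 held CD8 as well as CD4 transcripts, with Cd8a and Cd8b1 at a summed 141 to 243 CPM and Cd4 at 47.8 to 108 CPM. CD4_Treg-FOXP3 had 113 long-term cells and 149 T127 cells, but 5 T22 cells, too few to use.

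Some members lay in the cells that their class as ligand or receptor names, and others did not. Myeloid labels held 95.01% of Cd80 UMIs and 98.8% of Cd86 UMIs in the long-term pools, and between 94.4% and 98.2% of either gene in both short-term groups. Of the receptors, Havcr2 was myeloid too, with 97.3% of its UMIs in the long-term pools, 99.1% in T22 and 94.5% in T127. Lag3 was 92.8% myeloid in the long-term pools and 85.8% in T22, but in T127 its UMIs were divided among malignant (28.4%), myeloid (33.3%) and T and NK labels (35.2%). Ctla4 lay in T and NK labels, with 78.3%, 92.7% and 91.8% of UMIs in the long-term, T22 and T127 pools. Cd274 UMIs came mostly from myeloid labels in the long-term pools (84.2%) and in T127 (66.5%), whereas T and NK labels gave 50.9% of them in T22. Pdcd1lg2 had 84.6% of its UMIs in T and NK labels in T22, 26.0% in the long-term pools and 29.0% in T127. T and NK cells were 31.1% of T22 cells, 7.15% of long-term cells and 6.62% of T127 cells, and these shares of UMIs move with that make-up.

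**Figure D1:**
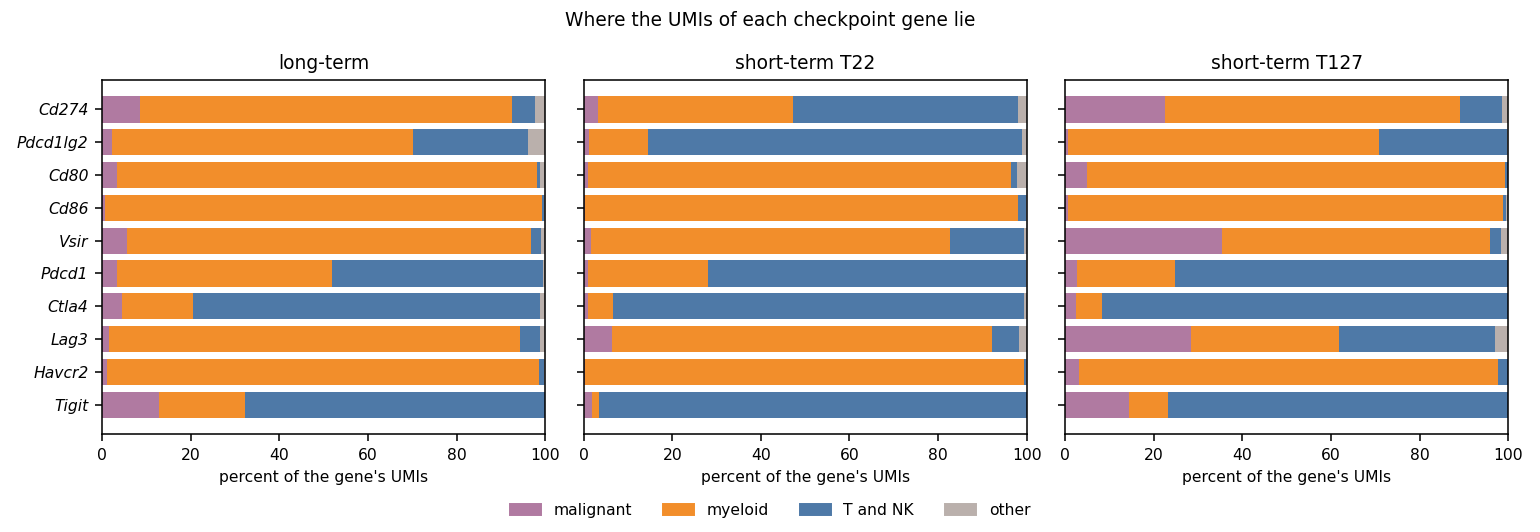
Percent of each member's UMIs (x axis) that lay in malignant, myeloid, T and NK, or other labels, for the 3 groups of pools. Cd80, Cd86 and Havcr2 bars are almost entirely myeloid in every group, Ctla4 and Tigit bars are mostly T and NK, and the malignant parts of Cd274, Vsir and Lag3 are largest in T127, where malignant cells were 60.9% of cells.

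Levels of the ligands in myeloid cells differed most between T22 and T127 for Cd80, which encodes the costimulatory ligand CD80. Over all myeloid labels but plasmacytoid dendritic cells (pDC), Cd80 stood at 14.2, 12.2, 14.8 and 13.2 CPM in the T22 pools and at 126.6, 125, 114 and 126.6 CPM in the T127 pools. The pools did not overlap. Summed, T22 reached 0.110 of the T127 level (95% interval 0.102 to 0.119). The long-term pools, which hold cells of both models, stood at 12.2 to 16.4 CPM with a median of 14.7 CPM, within or close to the T22 pools and well below the T127 pools.

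The difference of Cd80 was present in each of the 6 labels that had at least 50 cells in both groups. In Macro-M2, T22 pools gave 19.4, 21.2, 23.1 and 16.5 CPM and T127 pools 140.2, 140.04, 139 and 144 CPM, a ratio of 0.141 (0.121 to 0.164). In Macro-others the summed levels were 7.33 and 128 CPM, a ratio of 0.0570 (0.0453 to 0.0713). In CD14-IL1B, the label with conventional dendritic cell genes, T22 was less far below T127, at 38.2 against 109 CPM. Thinned to 3000 UMIs per cell, 5.52% of T22 Macro-M2 cells (37 of 670, interval 3.92 to 7.53) and 32.4% of T127 Macro-M2 cells (380 of 1174, 29.7 to 35.1) had a Cd80 UMI. CD4_Tcm-TCF7 cells, which should lack the gene, had 0 of 2216 in T22, which allows a share of up to 0.135% when 3 cells are taken as the limit of a count of 0. Without thinning the shares were 15.4%, 63.1% and 0.246%. Median depth was then 13221 and 11285.5 UMIs in the Macro-M2 cells and 6403 UMIs in the T cells, of which 222 shallower ones are not in the thinned share.

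Cd274 was also lower in T22 myeloid cells, by a smaller and less even margin. Over all myeloid labels but pDC, the T22 pools stood at 16.0, 16.9, 16.6 and 16.1 CPM and the T127 pools at 52.9, 55.2, 38.5 and 39.0 CPM. These do not overlap, and the ratio of the sums was 0.353 (0.325 to 0.384). In Macro-others the T22 pools read 9.81, 13.2, 16.5 and 17.0 CPM against 53.3, 97.6, 54.0 and 68.9 CPM in T127, a ratio of 0.213. In Macro-M2 the values were 25.4, 37.2, 15.4 and 17.8 CPM against 52.6, 53.0, 45.1 and 38.0 CPM. The Macro-M2 ratio of 0.511 (0.437 to 0.596) lay just short of 2-fold, and its pools stood apart by less than 1 CPM. Long-term pools, which hold cells of both models, ran from 14.2 to 33.5 CPM in Macro-M2 and from 12.0 to 16.7 CPM in Macro-others. Both ranges lay below every T127 pool of the same label. In CD14-PF4 the order was turned, with 67.4 CPM in T22 and 37.1 CPM in T127, but T127 pool 2 alone reached 111 CPM and the pools overlapped.

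Pdcd1lg2, the other PD-1 ligand, was low in macrophages of either model. Its pools over all myeloid labels but pDC were 3.67, 3.35, 3.71 and 1.88 CPM in T22 and 16.1, 17.5, 17.6 and 20.7 CPM in T127. The pools lay apart, with a ratio of 0.174. In Macro-others it stood at 1.69 CPM in T22 and 29.4 CPM in T127, a ratio of 0.0574. The long-term pools of that label ran from 3.72 to 10.8 CPM, above every T22 pool and below every T127 pool.

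Cd86 and Vsir did not share this pattern. For Cd86, which encodes the other ligand of CD28 and CTLA-4, Macro-M2 cells had 174, 174, 148 and 152 CPM in the T22 pools and 148, 159, 148 and 143 CPM in the T127 pools, which overlap, with a ratio of 1.08. Its ratios in the 6 labels ran from 0.611 in CD14-PF4 to 1.36 in Macro-others. Vsir had higher values in T22 in 5 of the 6 labels. Macro-M2 cells had 250.3, 214, 241 and 229 CPM of Vsir in T22 and 155, 178, 178 and 162 CPM in T127, without overlap, and a ratio of 1.39. CD16-CDKN1C was the exception, at 186 CPM in T22 and 280.0 CPM in T127.

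**Figure D2:**
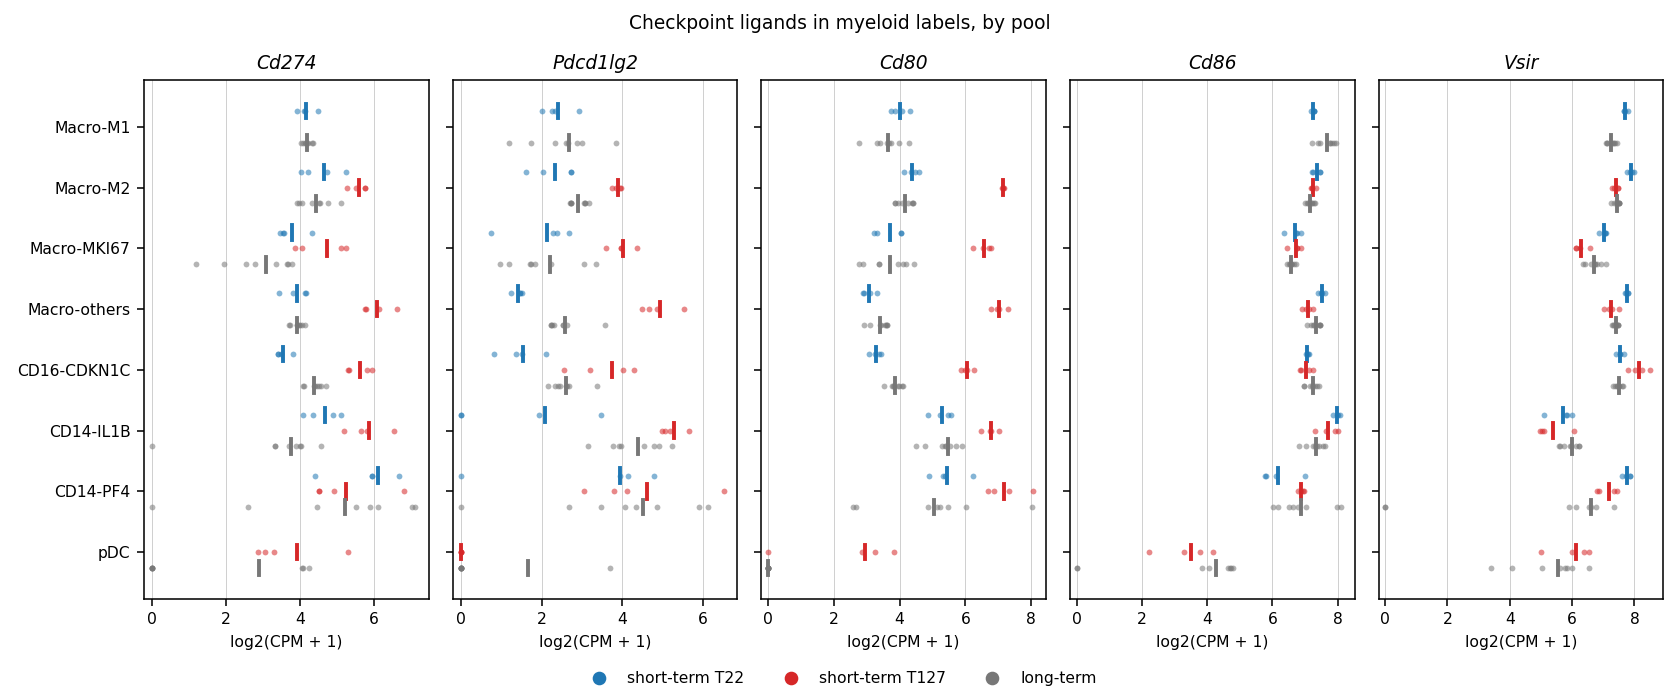
Level of each ligand in each myeloid label on a log2(CPM + 1) scale, with 1 point per pool and a bar at the level of the summed pools (T22 blue, T127 red, long-term grey; labels with at least 50 cells). Cd80 points of T127 lie to the right of all T22 points in every label shown for both, while Cd86 points of the groups lie on top of each other in most labels.

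Counted over the 5 ligands and 6 labels, 15 of 30 pairs lay at least 2-fold apart, each with the lower value in T22. These were 6 pairs of Cd80, 5 of Pdcd1lg2 and 4 of Cd274, and none of Cd86 or Vsir. Among all genes with at least 20 UMIs, the share at least 2-fold lower in T22 was 9.4% in Macro-M2, 8.35% in Macro-MKI67, 11.7% in Macro-others, 13.6% in CD16-CDKN1C, 9.84% in CD14-IL1B and 8.59% in CD14-PF4. The share at least 2-fold higher was 10.1%, 9.69%, 10.4%, 10.7%, 4.82% and 9.56% in the same order. The pools of T22 lay entirely below those of T127 in 16 pairs and entirely above in 5, and overlapped in 9. Across all genes the pools lay entirely below in 24.6% of genes in Macro-M2, 19.5% in Macro-MKI67, 21.1% in Macro-others, 23.8% in CD16-CDKN1C, 16.4% in CD14-IL1B and 5.84% in CD14-PF4, and entirely above in 17.6%, 14.2%, 14.5%, 13.6%, 5.46% and 6.52%. Only labels shared by both groups enter these counts, since Macro-M1 had 1203 cells in T22 and 3 in T127.

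Some of these calls, mostly of Cd274, moved when 1 pool was left out. The Macro-MKI67 ratio of 0.4997 lay at the threshold and passed it no longer without T127 pool 1 or 2 or T22 pool 2, 3 or 4. The CD14-IL1B ratio of 0.428 passed it no longer without T127 pool 1. Conversely, the Macro-M2 ratio of Cd274 passed 2-fold without T127 pool 4 or T22 pool 2. In CD14-PF4, Cd274 became at least 2-fold higher in T22 without T127 pool 2 or T22 pool 2, the only pair with a call in that direction when a pool was left out. In the same label Pdcd1lg2 became lower in T22 without pool 3 of either group, and Cd86 without T22 pool 3. No Cd80 pair changed side.

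Markers of other cells differed between the groups in the same labels. The mature dendritic cell list (3 of 3 genes detected) summed to 8.87 to 58.8 CPM in the T22 pools of Macro-others and to 202 to 1004 CPM in the T127 pools. In CD16-CDKN1C it summed to 14.6 to 49.1 and 114 to 504 CPM. The epithelial list (Epcam, Krt8, Krt18; 3 of 3) in Macro-others ran from 32.9 to 98.1 CPM in T22 and from 409 to 709.6 CPM in T127. In Macro-M2 the neutrophil list (S100a8, S100a9, Retnlg; 3 of 3) summed to 3.54 to 32.3 CPM in T22 and 55.5 to 365 CPM in T127, and the macrophage list to 6070 to 7182 CPM in T22 and 3734 to 4733 CPM in T127. The part of epithelial, neutrophil and macrophage content in the ligand levels was not tested.

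The mature dendritic cell genes were followed further because Ccr7, a chemokine receptor, and Fscn1, an actin-bundling protein, mark dendritic cells that mature and migrate. Myeloid cells with at least 1 UMI of both genes, a class cut by detection and not a cluster, were 126 of the long-term myeloid cells (0.815%), 79 of T22 (1.00%) and 43 of T127 (1.95%). In 5, 2 and 0 of them both genes stood at 1 UMI. The class was made after the values of the labels had been seen. In T127 it lay mainly in Macro-others (17 cells), CD14-IL1B (10), CD16-CDKN1C (8) and CD14-PF4 (7), and in T22 mainly in Macro-M1 (36 cells).

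Both PD-1 ligands were high in these cells. Cd274 stood at 156 CPM against 16.5 CPM in the other long-term myeloid cells, at 193 against 13.6 CPM in T22 and at 463 against 39.8 CPM in T127, 9.45-fold, 14.2-fold and 11.6-fold higher. The pools did not overlap in any group, with 405 to 613 CPM against 30.8 to 47.9 CPM in T127 and 167 to 223 CPM against 12.4 to 15.0 CPM in T22. Pdcd1lg2 was 27.6-fold, 19.0-fold and 13.1-fold higher, at 143, 46.5 and 198 CPM. Cd80 stood at 102, 64.9 and 323 CPM, which was 7.34-fold, 5.09-fold and 2.69-fold above the other cells. Vsir showed the opposite order, at 34.0 against 163 CPM, 27.1 against 197 CPM and 4.90 against 149.5 CPM. Havcr2 was also lower in the class, at 29.3 against 119 CPM in the long-term pools and 107.5 against 174 CPM in T22 (ratio 0.616, with overlapping pools), and it had 0 UMIs in the T127 cells of the class beside 109 CPM in the others. Pdcd1 differed between the groups. The T127 class had 46 UMIs or 113 CPM against 1.84 CPM in the other cells (61.1-fold, 39.9 to 93.6). The long-term class had 52.0 against 5.68 CPM, but its pools ran from 0 to 213 CPM and overlapped those of the other cells. The T22 class had 0 UMIs against 16.4 CPM. Without long-term pools 1, 2 and 3 the class had 69 long-term cells, in which Cd274 was 8.24-fold, Pdcd1lg2 24.6-fold and Pdcd1 6.86-fold higher.

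These few cells held 6.60% of the myeloid Cd274 UMIs of the long-term pools, 18.5% in T22 and 15.4% in T127. Median depth of the class and of the other cells was 7725.5 and 8880 UMIs in the long-term pools, 12612 and 6151.5 in T22, and 9272 and 10718 in T127. A cell enters the class with 1 UMI of each gene, so membership depends on depth. With every cell thinned to 3000 UMIs before the class was set, 99, 56 and 40 cells were in it, and Cd274 was 10.3-fold, 15.7-fold and 9.12-fold higher than in the other myeloid cells.

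**Figure D3:**
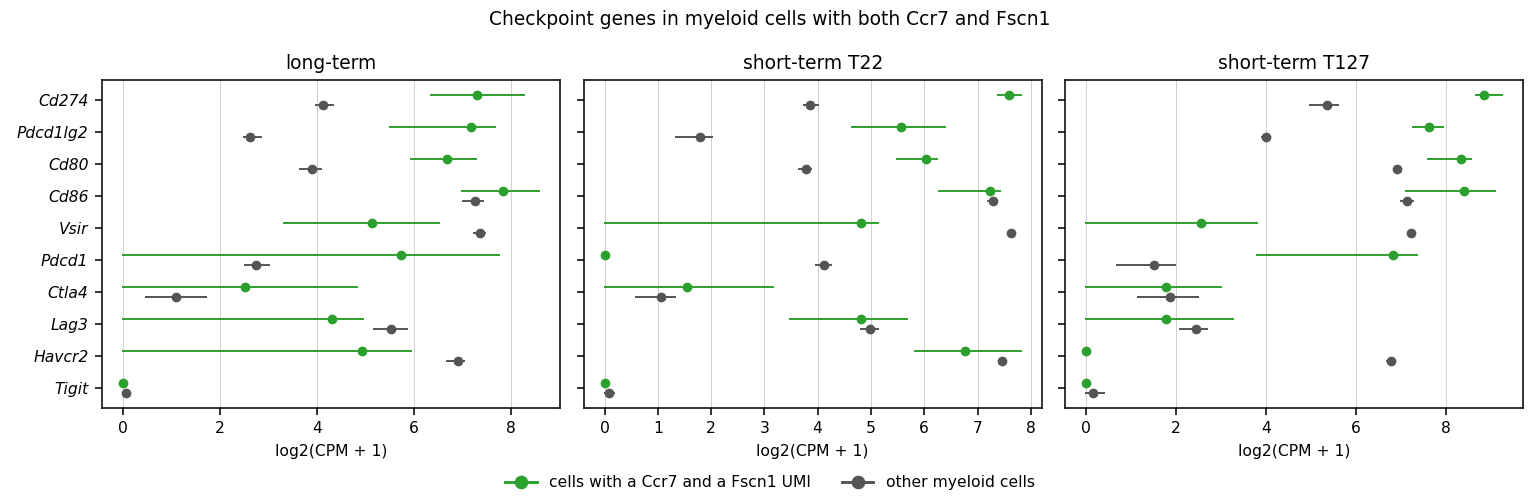
Level of the 10 members on a log2(CPM + 1) scale in myeloid cells with a Ccr7 and a Fscn1 UMI (green) and in the other myeloid cells (grey), with lines from the lowest to the highest pool. Cd274, Pdcd1lg2 and Cd80 lie to the right in the green class in all 3 groups, and Vsir lies to the left.

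The ratios of T22 to T127 were also computed without these cells. Of 29 pairs of ligand and label that still had 20 UMIs, 14 lay at least 2-fold apart, all lower in T22. Among them were 6 of 6 pairs of Cd80 and 5 of 5 of Pdcd1lg2. In the full labels, 8.35% to 13.6% of all genes were as much lower in T22 and 4.82% to 10.7% as much higher. These shares were not computed without the cells. For Cd274 the count went from 4 to 3 of 6, as CD14-IL1B, at a ratio of 0.517 (0.335 to 0.785), no longer passed 2-fold. In Macro-others the T127 level of Cd274 was 35.9 CPM without the class, 66.5 CPM with it, and the T22 level 12.9 CPM, so that the ratio moved from 0.213 to 0.360. In CD14-PF4 the ratio of Cd274 moved from 1.82 to 0.667 (0.268 to 1.59). Cd80 hardly moved, with a ratio of 0.0614 in Macro-others.

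Ligands were also read together in single cells. With cells thinned to 3000 UMIs, at least 2 of the 5 ligands were detected in 36.0% of T127 Macro-M2 cells (33.3 to 38.9), 22.7% of T22 cells (19.6 to 26.0) and 17.7% of long-term cells (16.5 to 19.1). In Macro-others the shares were 36.4% in T127 and 20.9% in T22. Without thinning the Macro-M2 shares were 86.1%, 77.2% and 66.0%.

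Macro-M2 and Macro-M1, named for alternative and classical macrophage activation, were compared inside the same long-term pools. In the short-term pools Macro-M1 had 1203 cells in T22 and 3 in T127, and Macro-M2 had 670 and 1174. The model of a long-term macrophage is not known here, so label and model cannot be told apart in that comparison. None of the 5 ligands lay 2-fold apart, where 7.39% of all genes were at least 2-fold higher and 0.991% at least 2-fold lower in Macro-M2. Cd86 stood lower in Macro-M2 in 8 of 8 pools, at 142 against 204 CPM (ratio 0.696, 0.664 to 0.730), and Cd80 stood higher in 7 of 8 pools, at 16.8 against 11.4 CPM. The receptor Havcr2 was lower in Macro-M2 in 8 of 8 pools, 89.3 to 121 CPM against 127.2 to 174 CPM, without overlap. Lag3 was lower there in 8 of 8 pools as well, at 40.8 against 70.2 CPM (ratio 0.582), although its ranges overlap. In the T22 short-term pools, Havcr2 was again lower in Macro-M2 in 4 of 4 pools, at 156 against 197 CPM, while Cd86 was not (162 against 151 CPM) and Lag3 stood at 32.3 and 33.8 CPM. No ligand lay 2-fold apart in T22 either, where the shares over all genes were 2.76% higher and 3.52% lower.

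Of the 5 ligands, Vsir had the highest level in malignant cells, at 13.2 CPM in short-term T127 cells and 4.95 CPM in short-term T22 cells, and each of the others stood below 3 CPM in the sum of either model. Cd274, the ligand that tumor cells are known to present to PD-1, stood at 2.07, 1.16, 1.58 and 1.11 CPM in the short-term T22 pools (Malign_2 and Malign_3) and at 2.18, 2.26, 2.78 and 2.36 CPM in the T127 pools (Malign_0 and Malign_1). The pools did not overlap, by a margin of about 0.1 CPM between T22 pool 1 and T127 pool 1. The ratio of T22 to T127 was 0.623 (0.484 to 0.794), or -0.68 on the log2 scale.

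In the long-term pools both kinds of malignant cells were in the same libraries. T22 cells had 0 to 1.45 CPM of Cd274 with a median of 0.837 CPM, and T127 cells 0.983 to 3.04 CPM with a median of 2.28 CPM. T22 was the lower of the pair in 7 of 8 pools, although the 2 sets of pools overlap. The ratio was 0.333 (0.218 to 0.492), or -1.59 on the log2 scale, and -1.38 without the 3 pools that share barcodes. Between these malignant cells, 22.7% of all genes were at least 2-fold lower in T22 in the short-term pools and 20.4% in the long-term pools. Stray RNA was estimated by scaling the mean myeloid or T and NK profile to the C1qa or Cd3 transcripts of a cluster, which is no upper limit. The highest estimates for Cd274 in a malignant cluster were 0.145 CPM from myeloid cells and 0.269 CPM from T and NK cells. After thinning, 0.926% of long-term Malign_0 cells, 0.875% of T127 Malign_0 cells, 0.222% of long-term Malign_2 cells and 0.691% of T22 Malign_2 cells had a Cd274 UMI, beside 3.17%, 6.04%, 1.18% and 3.17% without thinning at median depths of 19775, 36205, 15779.5 and 25194.5 UMIs.

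Vsir was the ligand with the clearest difference between the malignant cells. T22 pools had 5.14, 5.67, 3.95 and 4.93 CPM and T127 pools 11.5, 14.1, 13.6 and 13.7 CPM in the short-term experiment. The same order held in the long-term pools, with 2.91 to 4.98 CPM (median 4.22) in T22 cells and 9.53 to 13.8 CPM (median 12.9) in T127 cells, lower in T22 in 8 of 8 pools. The ratios were 0.375 (0.328 to 0.426) and 0.340 (0.287 to 0.400). Pools lay entirely apart and lower in T22 for 38.6% of all genes in the short-term and 25.5% in the long-term experiment. Stray myeloid RNA would give T127 malignant cells 0.136 to 0.164 CPM of Vsir in the short-term pools, but 1.34 CPM of the 2.98 CPM in long-term Malign_3, and 0.450 to 0.690 CPM in the T22 short-term clusters.

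The other ligands of malignant cells rested on few UMIs. Pdcd1lg2 stood at 0.378 CPM in T22 and 0.0227 CPM in T127 in the short-term pools (20 and 4 UMIs; ratio 16.6, 5.56 to 66.8, without overlap), and at 0.280 and 0.180 CPM in the long-term pools (ratio 1.56, 0.665 to 3.48), which overlap. Without the 3 pools that share barcodes the latter ratio was 2.60, on 8 UMIs in each. The estimate from stray T and NK RNA was 0.284 of the 0.398 CPM in T22 Malign_2. Cd80 stood at 0.170 CPM in T22 and 0.966 CPM in T127 in the short-term pools (9 and 170 UMIs), and at 0.509 CPM in both in the long-term pools. Cd86 stood at 0.567 and 0.114 CPM in the short-term pools, and the part of stray myeloid RNA in these levels was not tested. In the long-term pools the ratio of Cd86 was 2.09, with T22 higher in 6 and lower in 2 of 8 pools. The part of stray myeloid RNA in that ratio was not tested either. Between the long-term and the short-term pools of the same cluster, 6 of the 20 pairs of ligand and malignant cluster, 15 of which had at least 20 UMIs, lay at least 2-fold apart, 4 higher and 2 lower in the long-term pools. The median log2 ratio of all genes lay between -0.37 and -0.33, and with TMM scaling 5 pairs were higher and 0 lower. The higher ones were Cd86 in Malign_0 (0.692 against 0.117 CPM), in Malign_1 (0.759 against 0.110 CPM) and in Malign_3, where the short-term side had 1 UMI, and Cd80 in Malign_2. Stray myeloid RNA would give 0.531 CPM of Cd86 in long-term Malign_0. The lower ones, which TMM scaling did not call, were Cd80 in Malign_1 and Cd274 in Malign_2 (0.723 against 1.57 CPM). Over all genes in Malign_0, Malign_1, Malign_2 and Malign_3, 7%, 6.63%, 3.21% and 4.27% were at least 2-fold higher and 22.4%, 23.5%, 18.1% and 18.9% at least 2-fold lower in the long-term pools.

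Among the receptors, Lag3 was higher in T22 malignant cells when the clusters of a model were summed, and Pdcd1 was higher in the short-term pools. Lag3 stood at 2.83 against 1.58 CPM in the short-term pools (ratio 1.79, 1.46 to 2.19, without overlap) and at 1.501 against 0.489 CPM in the long-term pools (ratio 3.07, 2.07 to 4.58), where T22 was the higher of the pair in 8 of 8 pools and the ratio was 2.83 without the 3 pools that share barcodes. By cluster, the short-term difference rests on T127 Malign_0 at 0.648 CPM, whereas T127 Malign_1 at 2.65 CPM (pools 2.17 to 3.04) overlapped T22 Malign_2 at 2.81 CPM (2.22 to 3.32). At least 2-fold higher in T22 were 28.4% of all genes in the short-term and 26.1% in the long-term malignant cells. Stray myeloid RNA would give the long-term clusters 0.157 to 0.371 CPM of Lag3. Pdcd1 stood at 0.774 against 0.0739 CPM in the short-term pools (ratio 10.5, 5.50 to 21.3, without overlap) and at 0.738 against 0.289 CPM in the long-term pools (ratio 2.55, 1.47 to 4.42), which overlap. The long-term ratio was 1.19 without the 3 pools that share barcodes, with T22 higher in 3 and lower in 2 of the other 5. For Pdcd1 the estimate from stray T and NK RNA was 0.608 of the 0.859 CPM in T22 Malign_2. Of 10 other receptors of the pathway, 8 were at least 2-fold higher in short-term T22 malignant cells and 1 lower. Over all genes 28.4% were higher and 22.7% lower, and stray RNA was not tested for these receptors.

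Summed over the 5 members, the receptors were higher in regulatory T cells than in CD4_Tcm-TCF7 cells. CD4_Treg-FOXP3 cells, which suppress other T cells and carry CTLA-4, had a list of Foxp3, Il2ra and Ikzf2 at a summed 795 CPM in the long-term pools and 3244 CPM in T127. Summed over the 5 receptors they had 1462 CPM against 164 CPM in CD4_Tcm-TCF7 cells of the long-term pools, 8.91-fold (7.99 to 9.93), and 816 to 2190.4 CPM against 119 to 367 CPM by pool. In T127 the sums were 2675 and 297 CPM, 9.02-fold (7.76 to 10.5). The pools did not overlap in either group. Without Ctla4 the ratios were 4.10 and 5.29, and without the 3 pools that share barcodes the long-term ratio was 3.14 on the log2 scale against 3.15 with them.

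Ctla4 led this difference. In the long-term pools its level ran from 609 to 1870.5 CPM (median 968) in CD4_Treg-FOXP3 and from 27.2 to 121 CPM (median 47.2) in CD4_Tcm-TCF7, higher in 8 of 8 pools and 18.7-fold in sum (15.9 to 22.02). In T127 the pools were 1834, 1920.5, 1509 and 1898 CPM against 199, 47.1, 139.7 and 123 CPM. After thinning, 50.0% of regulatory T cells in the long-term pools (30 of 60) and 86.5% in T127 (77 of 89) had a Ctla4 UMI, beside 0.114% of long-term Macro-M2 cells, which should lack it. Cells under 3000 UMIs, 53 and 60 of them, had to be left out, and without thinning the shares were 62.8% and 83.9%. Median depth was 3287, 3245 and 11168 UMIs before thinning.

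Pdcd1, which encodes PD-1, ran from 73.8 to 435 CPM (median 210.4) in the long-term regulatory T cells and from 58.1 to 165 CPM (median 76.1) in CD4_Tcm-TCF7, higher in 8 of 8 pools although the ranges overlap. In T127 its pools were 475, 569.9, 432 and 567 CPM against 71.1, 33.7, 31.8 and 108 CPM, 7.69-fold in sum. Lag3 reached 155 CPM in long-term regulatory T cells against 17.6 CPM, but pool 2 alone stood at 563 CPM and the level without it was 89.1 CPM. Without the 3 pools that share barcodes the level was 76.7 CPM and the ratio 4.36 in place of 8.81. In the short-term pools CD4_Tcm-TCF7 had 2.19 CPM of Lag3 in T22 and 76.8 CPM in T127. Regulatory T cells numbered 5 in T22 and 149 in T127, so cell type and model cannot be told apart in the long-term ratios. In T127, Lag3 stood at 240.1, 211, 279 and 412 CPM against 49.7, 80.8, 108 and 68.7 CPM. Havcr2 was 5.58-fold and 7.46-fold higher in regulatory T cells, at 65.7 and 91.8 CPM. Tigit rested on 7 UMIs in the long-term and 18 UMIs in the T127 regulatory T cells, with ratios of 4.81 (1.62 to 13.0) and 1.92 (0.857 to 4.49). By pool, Tigit was higher in the regulatory T cells in 3 and lower in 4 of the 8 long-term pools. Lag3 and Havcr2 were higher there in 7 of 8. In T127 all 5 receptors were higher in 4 of 4 pools, but so were the ligands Pdcd1lg2, Cd86 and Vsir. Cd274 and Cd80 were higher in 3 of 4 T127 pools. The share of all genes that were higher in every pool was not computed for this comparison.

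In sum over the pools, 5 of 5 receptors were at least 2-fold higher in the long-term experiment, where 7.94% of all genes were as far above CD4_Tcm-TCF7, and for 4 of 5 in T127, where 12.1% were. As far below were 9.72% and 7.05% of all genes, and no receptor. Without the 3 pools that share barcodes Tigit had under 20 UMIs and the other 4 receptors were at least 2-fold higher in the long-term experiment. The fewest regulatory T cells in a long-term pool were 7. Co-detection followed the sums. Thinned to 3000 UMIs, at least 2 of the 5 receptors were found in 30.0% of long-term regulatory T cells (18 of 60, interval 18.8 to 43.2) and in 68.5% in T127 (61 of 89, 57.8 to 78.0). In CD4_Tcm-TCF7 these shares were 2.53%, 1.40% and 2.33% in the long-term, T22 and T127 pools. Without thinning they were 40.7% and 61.1% in the regulatory T cells and 4.14%, 4.27% and 8.33% in CD4_Tcm-TCF7. The neutrophil list summed to 0 to 2998 CPM in the long-term regulatory T cells by pool, and its part was not tested.

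**Figure D4:**
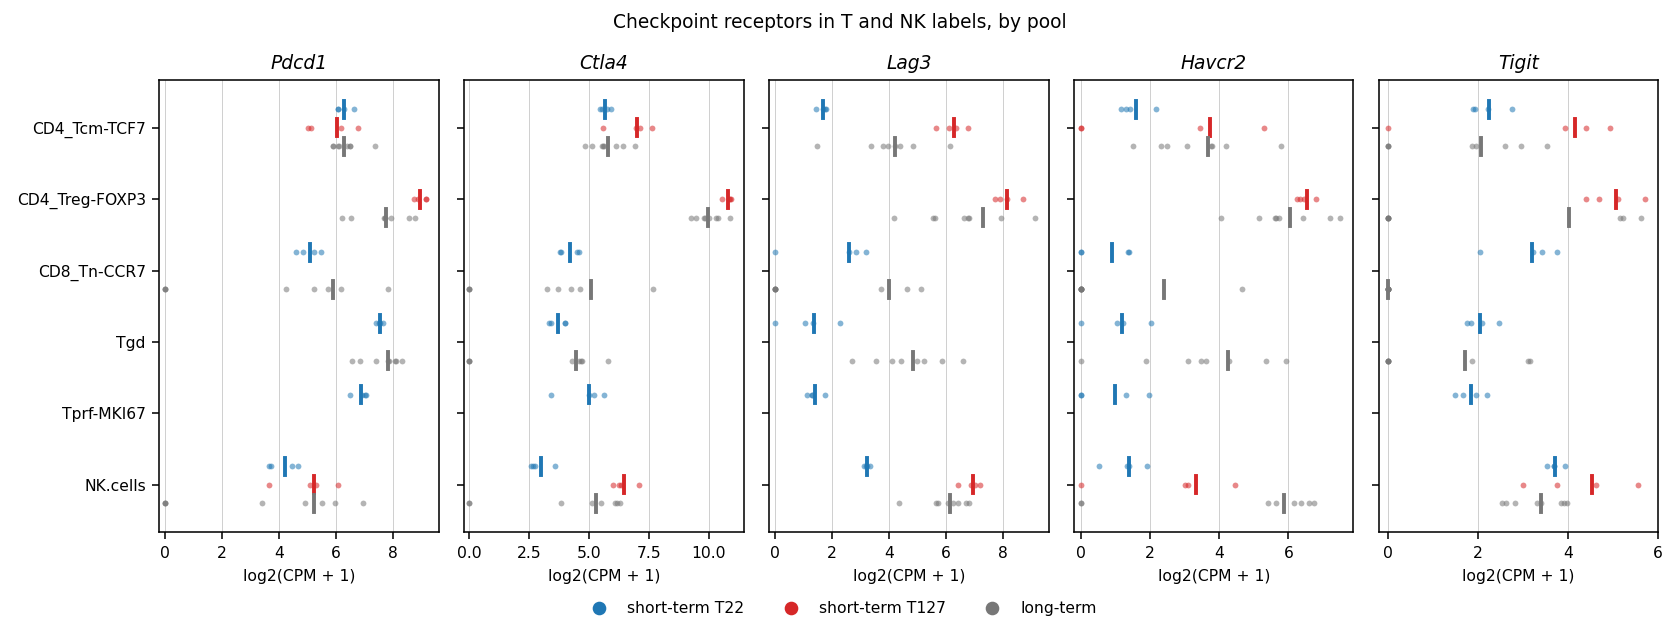
Level of each receptor in each T and NK label on a log2(CPM + 1) scale, with 1 point per pool and a bar at the level of the summed pools (T22 blue, T127 red, long-term grey; labels with at least 50 cells). Ctla4 of CD4_Treg-FOXP3 stands far to the right of every other label, and Lag3 points of T22 lie to the left of T127 and long-term points in CD4_Tcm-TCF7 and NK.cells, apart from 1 long-term pool of CD4_Tcm-TCF7 at 1.81 CPM.

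Outside the regulatory T cells, Pdcd1 was highest in sum in the Tgd label of gamma delta T cells in the long-term pools and in T22. Its level there ran from 92.8 to 319 CPM (median 228) in the long-term pools and stood at 168, 202, 184 and 185 CPM in T22. A Pdcd1 UMI was present in 38.1% of thinned long-term and 32.4% of thinned T22 Tgd cells, against 0.214% of long-term Malign_0 and 0.173% of T22 Malign_2 cells, which should lack it. The shares of Tgd without thinning were 48.3% and 46.3%, at median depths of 5643 and 7872 UMIs. In T22, the Tgd pools lay above those of the next label, proliferating T cells (Tprf-MKI67), which had 131, 120.03, 90.3 and 128 CPM. In the long-term pools, Tgd overlapped by pool with regulatory T cells (215 CPM in sum), CD4_Tcm-TCF7, CD8_Tn-CCR7 and NK.cells. T127 had 17 Tgd cells, too few to use.

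Between the models, Lag3 set the T and NK cells furthest apart. CD4_Tcm-TCF7 cells had 2.43, 2.23, 2.36 and 1.73 CPM of Lag3 in T22 and 49.7, 80.8, 108 and 68.7 CPM in T127. NK.cells had 8.17, 7.81, 9.04 and 8.30 CPM in T22 and 84.5, 129, 118 and 147 CPM in T127. There was no overlap in either label, with ratios of 0.0285 (0.0180 to 0.0446) and 0.0681 (0.0505 to 0.0913). Thinned, 2.14% of T22 NK.cells and 30.5% of T127 NK.cells had a Lag3 UMI, and 17.9% of long-term NK.cells. Without thinning the shares were 5.20%, 48.9% and 27.4%. In endothelial cells, which should lack the gene, 1 of 66 T22 cells, 1 of 95 T127 cells and 0 of 140 long-term cells had one after thinning.

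Ctla4 was also lower in T22, at 5.31, 5.64, 5.02 and 11.1 CPM in NK.cells against 79.8, 133, 76.1 and 63.1 CPM in T127 (ratio 0.0794). In CD4_Tcm-TCF7 its T127 pools ran from 47.1 to 199 CPM and overlapped with 42.9 to 59.9 CPM in T22 (ratio 0.400). Havcr2 ratios were 0.163 and 0.180 in CD4_Tcm-TCF7 and NK.cells, on 8 and 9 UMIs in T127. Tigit had a ratio of 0.220 in CD4_Tcm-TCF7 and 0.554 in NK.cells, where its T127 level of 21.98 CPM was 13.5 CPM without T127 pool 3. Ratios of Pdcd1 were 1.21 and 0.475.

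In all, 8 of 10 pairs of receptor and label lay at least 2-fold apart, each lower in T22. The shares of all genes that were as much lower were 12.9% in CD4_Tcm-TCF7 and 4.83% in NK.cells, and 8.23% and 10.7% were as much higher. The pools lay entirely apart in 3 of the 10 pairs, lower in T22, and overlapped in 7, where 8.82% and 8.04% of all genes had every T22 pool lower. The call of Pdcd1 in NK.cells was lost without T127 pool 2 or without T22 pool 1 or 3, and Havcr2 in NK.cells had under 20 UMIs without T127 pool 2 or T22 pool 4. Tigit in NK.cells was past 2-fold, lower in T22, without T127 pool 2 or 4.

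**Figure D5:**
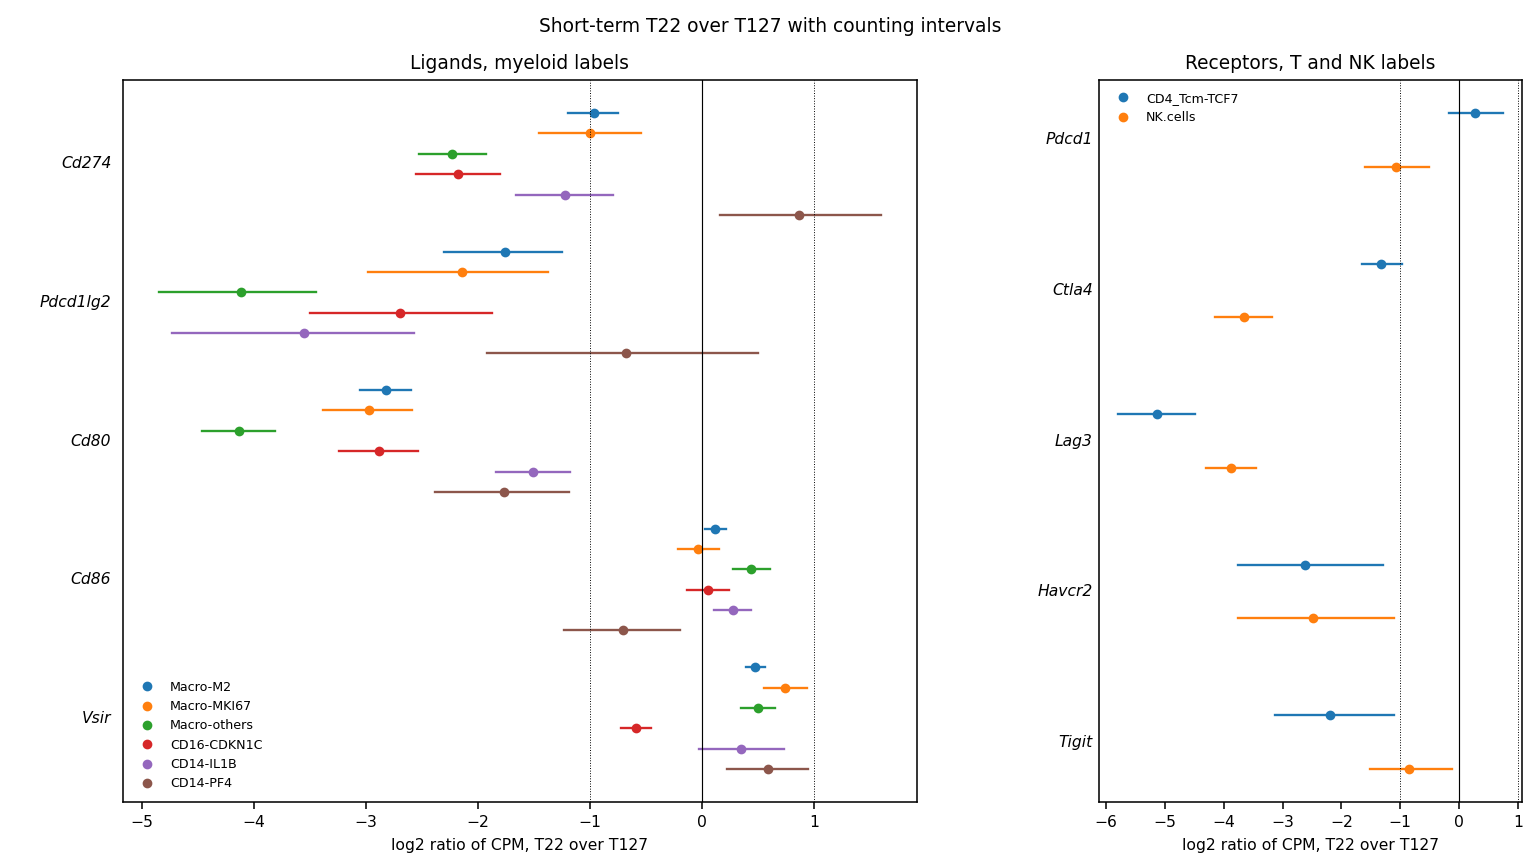
Log2 ratio of the T22 to the T127 level (x axis) for each ligand in 6 myeloid labels and each receptor in 2 T and NK labels, with 95% counting intervals as lines and dotted lines at 2-fold. All points of Cd80 lie to the left of the lower dotted line, Cd86 and Vsir lie between the lines, and Lag3 has the lowest ratios of the receptors, 0.0285 and 0.0681 before the log.

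Of the marker lists given here for these labels, the NK list in CD4_Tcm-TCF7 had pools apart, and the other lists overlapped by pool. The regulatory T cell list (3 of 3 genes) summed to 322 to 392 CPM in the T22 pools and 270.0 to 520 CPM in the T127 pools of CD4_Tcm-TCF7, and its NK list (Ncr1, Klrb1c, Nkg7; 3 of 3) to 600.3 to 650.1 and 881 to 1461 CPM. In NK.cells the T cell list (Cd3d, Cd3e, Cd3g; 3 of 3) summed to 442 to 595 and 210.3 to 826 CPM, and Foxp3 was at 0 in all groups. The part of other cells in the receptor levels was not tested. Median depth was 6403 UMIs per cell in T22 and 2803.5 UMIs in T127 for CD4_Tcm-TCF7, and 6543 and 6064 UMIs for NK.cells.

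NK.cells and T cells carried the PD-1 ligands as well. Cd274 in NK.cells stood at 37.2, 42.5, 29.6 and 44.7 CPM in T22 and at 75.1, 108, 91.3 and 91.1 CPM in T127, and Pdcd1lg2 at 34.7, 40.8, 44.7 and 51.8 CPM and at 98.6, 75.1, 99.0 and 133 CPM. The pools did not overlap for either gene, with ratios of 0.423 and 0.418. Ordered by level, NK.cells were the first label for Pdcd1lg2 in all 3 groups (57.1 CPM in the long-term pools), but their pools overlapped with those of the next label in each group. For Cd274 the long-term order was CD14-PF4, CD4_Treg-FOXP3, B.cells, CD8_Tn-CCR7, Macro-M2 and NK.cells, from 36.1 to 20.3 CPM, and went down to 0.723 CPM in Malign_2. The CD14-PF4 level was 18.7 CPM without the 3 pools that share barcodes. Neighbours in that order overlapped by pool at every step.

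Lag3 in myeloid cells went the other way from Lag3 in T and NK cells. Macro-M2 cells had 30.3, 39.0, 27.7 and 31.8 CPM of Lag3 in T22 and 7.48, 2.37, 4.73 and 2.46 CPM in T127, a ratio of 7.66 (5.78 to 10.3). Over all myeloid labels but pDC, T22 pools stood at 27.0 to 34.0 CPM, T127 pools at 3.20 to 5.35 CPM and long-term pools at 35.2 to 56.5 CPM, none overlapping another group. The summed ratio of T22 to T127 was 6.87 (5.70 to 8.35), where 14% of all genes were at least 2-fold higher in T22. The thinned share of Macro-M2 cells with a Lag3 UMI was 8.36% in T22, 0.596% in T127 and 11.6% in the long-term pools, and 25.7%, 2.81% and 26.2% without thinning. Given their Cd3 transcripts, stray T and NK cell RNA would give the T22 macrophage labels 0.0212 to 0.0577 CPM.

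The highest Lag3 levels outside T and NK cells were in pDC, the interferon-producing plasmacytoid dendritic cells. These ran from 113 to 228 CPM (median 179.9) in the long-term pools and stood at 192, 145, 186 and 252 CPM in T127. Thinned, 36.25% of 160 long-term cells and 42.1% of 133 T127 cells of pDC had a Lag3 UMI (51.2% and 64.7% without thinning).

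Pdcd1 was at least 2-fold higher in T22 over all myeloid labels but pDC, where 14% of all genes were, but not in each label. CD14-IL1B stood at 8.58 CPM in T22 and 4.03 CPM in T127, with overlapping pools. CD14-PF4 had 1.32 CPM in T22 (1 UMI) and 15.1 CPM in T127 (11 UMIs), with overlapping pools, and the cells with Ccr7 and Fscn1 had 0 UMIs in T22 and 113 CPM in T127. Macro-M2 cells had 11.7, 17.3, 15.9 and 17.3 CPM in T22 and 2.22, 1.58, 0.316 and 4.65 CPM in T127, a ratio of 6.88 (4.66 to 10.4) with no overlap. The T127 level was 2.25 CPM with T127 pool 4 and 1.42 CPM without it. After thinning, 4.18% of T22 and 0.511% of T127 Macro-M2 cells had a Pdcd1 UMI, beside 13.9% and 1.36% without thinning. In Macro-MKI67 there were 60 UMIs in T22 and 0 in T127, at least 16.6-fold higher when 3 UMIs are taken as the floor of the T127 cells. Macro-others and CD16-CDKN1C overlapped by pool, with ratios of 1.74 and 2.66. Without the cells that had Ccr7 and Fscn1, which held 48.9% of the T127 myeloid Pdcd1 UMIs, these ratios were 6.39 (3.20 to 14.9) and 26.1, the latter on 1 UMI in T127 (4.63 to 1035). Stray T and NK cell RNA would give the T22 macrophage labels 0.425 to 1.16 CPM of Pdcd1. Havcr2 was higher in T22 as well, at 173 against 107 CPM over all myeloid labels but pDC, a ratio of 1.62.

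The other genes of the pathway were counted from lists. Of 15 other ligands, 12 had 20 UMIs over all myeloid labels but pDC, of which 1 was at least 2-fold higher in T22, 3 lower and 8 neither, with a median log2 ratio of -0.61. Icosl, the ligand of ICOS, was the higher one (5.45 against 1.74 CPM), and Cd70, Tnfsf4 and Tnfsf9, which encode ligands of costimulatory TNF receptors, the lower ones (Tnfsf9 24.2 against 52.1 CPM). Of 13 other receptors 7 were higher and 3 lower, with a median of 1.02. T and NK labels held 22.5% of all UMIs in T22 and 1.18% in T127, and stray RNA was not tested for these receptors. Tnfrsf9, which encodes the costimulatory receptor 4-1BB, stood at 3.45 CPM in T22 and 59.6 CPM in T127, and Cd244a at 15.5 and 4.88 CPM. The shares over all genes were 14% higher and 10.9% lower.

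Of 7 genes on the path from interferon gamma to Cd274, none was 2-fold higher in T22 over all myeloid labels but pDC and 1 was lower, with a median log2 ratio of -0.19, where 14% of all genes were higher and 10.9% lower. By label, 1 of the 7, Irf1, was at least 2-fold higher in Macro-M2, Macro-MKI67 and CD14-PF4, 1 was lower in Macro-others and 2 were lower in CD16-CDKN1C. The gene that was lower over all myeloid labels but pDC was Jak2, a kinase of the interferon receptor. In that sum it stood at 59.9 CPM in T22 and 128 CPM in T127. The transcription factor gene Irf1 stood at 25.9 and 15.6 CPM in that sum. In the short-term malignant cells 1 of the 7 was lower as well, the kinase gene Jak1 at 56.8 CPM in T22 and 173 CPM in T127. Other ligands stood further apart there, with 5 of 9 at least 2-fold higher in T22 and 1 lower, where 28.4% and 22.7% of all genes were. Ceacam1, whose product binds TIM-3, stood at 36.9 CPM in T22 and 0.0625 CPM in T127, and Vtcn1, a B7 family gene, at 12.5 and 0.0341 CPM (6 UMIs), while Pvr, which encodes a ligand of TIGIT, stood at 2.61 and 7.52 CPM.

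Among other receptors, long-term regulatory T cells had 5 of 13 at least 2-fold above CD4_Tcm-TCF7 and 1 below, beside 7.94% and 9.72% of all genes. Tnfrsf4, which encodes OX40, stood at 2508 against 177 CPM, Tnfrsf9 at 762 against 99.0 CPM, Klrg1 at 105 against 9.31 CPM and Tnfrsf18, which encodes GITR, at 107 against 25.7 CPM. In T127, 6 of 12 were above and 2 below, beside 12.1% and 7.05% of all genes, with Tnfrsf4 at 3753 against 79.9 CPM. Between the models, 2 of 14 were at least 2-fold higher in T22 in CD4_Tcm-TCF7 and 2 lower, beside 8.23% and 12.9% of all genes. In NK.cells 3 of 13 were higher and 2 lower, beside 10.7% and 4.83%. Cd40lg stood furthest apart in both labels. Tnfrsf9 was lower in T22 in CD4_Tcm-TCF7 (51.8 against 188 CPM) and in NK.cells (156 against 515 CPM). Cd226, an activating receptor that shares ligands with TIGIT, was higher (250.0 against 95.3 CPM and 163 against 62.0 CPM).

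The genes whose level over the 22 long-term labels was most like that of a member were picked by Pearson r of log2(CPM + 1) among 13285 genes. The labels share libraries and differ in depth, and r is given as a description. For Cd274 these were Akna (0.913), Rrad (0.903) and N4bp2l1 (0.895), for Pdcd1lg2 Rab8a (0.953), Ltb (0.945) and Akna (0.940), and for Cd80 Gm50022 (0.937), Tnip3 (0.925) and Ccr1 (0.916). Cd86 was nearest to Ctss (0.981), Fcgr2b (0.976) and Ms4a6c (0.971), and Vsir to Gpr65 (0.919), Gpr34 (0.913) and Skil (0.911). Cd274 and Pdcd1lg2 had an r of 0.862 with each other, and Cd274 and Cd80 of 0.475.

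Of the receptors, Pdcd1 was nearest to Icos (0.951), Cxcr6 (0.941) and Il12rb1 (0.939), and Ctla4 to Tnfrsf18 (0.943), Cd5 (0.935) and Pglyrp2 (0.932). Lag3 had no neighbour above 0.889 (Fyb, then Gm5547 at 0.888 and Rnaset2a at 0.882). Havcr2 was nearest to Alox5 (0.914), Lilr4b (0.912) and Mag (0.911), and Tigit to Klrg1 (0.865), Sla2 (0.843) and Gm15518 (0.820).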

How the data were processed

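Droplet libraries of 16 pools of hashtagged mouse tumors were used. The authors aligned reads with Cell Ranger 6.0.0 (per the labels) to GRCm38 with introns counted, removed low-quality cells and Scrublet doublets, and deposited raw UMI counts per gene and cell with a cluster label for each cell. No further doublet caller was run, but the cells in the upper 5% of UMIs per pool were dropped in an alternative. The deposited normalized signal was not used. Cells hold mouse genes and GRCm38 was named, so they were read as mouse although the organism field says otherwise.

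The counts were summed per label and group and divided by all UMIs of the label (CPM). Levels carry exact Poisson, ratios exact conditional binomial and shares Clopper-Pearson intervals at 95%. Pools held 34755906 to 55600377 UMIs. Labels needed 50 cells and pairs 20 UMIs in sum, and a pair was called past 2-fold. A side at 0 was set to 3 UMIs. Shares used cells thinned to 3000 UMIs, with shallower cells left out. RNA from other cells was estimated by scaling myeloid or T and NK profiles to C1qa or Cd3d, Cd3e and Cd3g. No test between groups was possible, since each group is 1 sample.

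Named genes were the 10 members, up to 4 genes per pathway list and comparison by size of the log2 ratio, and for each member the 3 genes of highest r among those with 50 UMIs and 5 CPM in a label. The members and lists were chosen with earlier results of these data known. Alternatives are given in the closing section. Sums and intervals used pandas 2.3.3, scipy 1.17.1 and numpy 2.4.6 in Python 3.11.15, plots matplotlib 3.10.9, and the TMM alternative edgeR 4.0.16 in R 4.3.3.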

Additional observations from a re-analysis of the deposited data

Results flagged for a closer look

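Of 147 levels of a member in a label, 5 had a pool far from the others of its group, where chance gives about 1 in 20. Pdcd1lg2 in Macro-others stood at 10.8 CPM in long-term pool 2 (50 UMIs) and at 3.72 to 5.24 CPM in the other pools. Pdcd1lg2 in CD16-CDKN1C stood at 9.31 CPM in long-term pool 4 and at 3.50 to 5.36 CPM elsewhere. Vsir in Macro-MKI67 was low in T22 pool 1, at 115 CPM beside 133 to 135 CPM. Vsir in CD14-IL1B was high in T127 pool 1, at 66.3 CPM (41 UMIs) beside 30.6 to 33.4 CPM. Pdcd1 in CD4_Tcm-TCF7 stood at 165 CPM in long-term pool 2, 1 of the pools that share barcodes, and at 58.1 to 88.9 CPM elsewhere. Of 20 differences that could be set side by side between experiments, none had every pool of one experiment on one side and every pool of the other on the opposite side.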

How the results depend on the processing

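No paired analysis was possible between the 3 groups because their pools match by number only and the results come from no test. For differences inside the long-term pools both sides share libraries, and the text counts the pools that were higher or lower, without a test. The ratios of these differences are of sums over the pools and are not paired. Neither the Cd274 ratios between malignant cells nor the receptor sum changed sign under an alternative that was run. Of single pairs, Cd274 in CD14-PF4 turned from a ratio of 1.82 to 0.667 without the cells that had Ccr7 and Fscn1. A pseudocount of 10 CPM brought the log2 ratio of Cd274 between malignant cells from -0.68 to -0.11 in the short-term pools, and pseudocounts of 1 and 10 CPM brought it from -1.59 to -0.89 and -0.19 in the long-term pools, since the levels are near 1 CPM. The 6 pairs of ligand and malignant cluster past 2-fold between long-term and short-term pools, 4 higher and 2 lower in the long-term pools, became 3 at a threshold of 3-fold (3 higher, 0 lower), 3 with at least 50 UMIs (1 higher, 2 lower), 5 with TMM scaling (5 higher, 0 lower) and 5 without pools 1, 2 and 3 (4 higher, 1 lower), where Cd80 in Malign_1 and Malign_2 left and Vsir in Malign_3 entered, higher. Leaving out the same 3 pools, which was chosen after seeing the data, moved 7 of 106 long-term levels by over 1.5-fold, among them Pdcd1, Ctla4 and Havcr2 in NK.cells, Lag3 in CD4_Treg-FOXP3 (155 to 76.7 CPM) and Tgd, and Cd274 and Pdcd1lg2 in CD14-PF4.

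With each pool left out in turn, the Cd274 log2 ratios ran from -0.90 to -0.57 and from -1.81 to -1.44, that of the receptor sum from 3.02 to 3.28, and the counts from 13 to 16, from 7 to 9, from 0 to 0 and from 4 to 8. Among the latter, Cd274 in Malign_2 was within 2-fold without long-term pool 6 or 7 or T22 pool 1, and Cd80 in Malign_1 without long-term pool 2. Cd80 in Malign_2 had under 20 UMIs without long-term pool 3 or 7 or T22 pool 1. Cd86 in Malign_2 passed 2-fold, higher in the long-term pools, without T22 pool 4, as did Vsir in Malign_3 without T22 pool 1 or 4. Alternatives chosen after seeing the data left 11 of 20 ligand pairs without both CD14 labels and 14 of 29 without the cells that had Ccr7 and Fscn1. The share of all genes past 2-fold was not computed without those cells. Keeping every copy of shared barcodes moved 0 of 268 levels beyond the spread of the pools. The shares of cells with a UMI depended far more on the setting. Of 175 shares, 165 moved by over 1.5-fold when at least 2 UMIs were asked for. Thinning to 2000 UMIs moved 47 of them as far, and no thinning 136. A denominator without mitochondrial and ribosomal protein genes moved 141 of the 268 levels beyond that spread, all upward, since a smaller denominator can only raise a level. In malignant cells Pdcd1lg2 rests on 4 to 20 UMIs and Cd86 on 20 to 72 UMIs per model and experiment.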
